A study of Mus musculus with 4 samples.

Results

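Cultures under 2 treatments were set against each other: mouse embryonic stem (ES) cells of the E14Tg2A line, strain 129/Ola, aggregated for 2 days in minimal medium with either 5-carboxy-8-hydroxyquinoline (CHQ, 100 µM), an inhibitor of lysine demethylases, or 5-azacytidine (AZA, 50 nM), an inhibitor of DNA methyltransferases. Such floating epiblast-like aggregates (ELA) leave the naive state of ES cells, which are grown with serum and the cytokine LIF, and take on features of the post-implantation epiblast. Each treatment was measured on 1 one-colour Agilent gene expression array, on RNA pooled from 3 independent experiments, and both arrays lay on the same slide. ES cells at day 0 and untreated ELA at day 2 were on the other slide, again with 1 array each. Of 55681 probes, 39837 were well above background on at least 1 of the CHQ and AZA arrays, and of 36039 genes, 27637 were measured in this way. The 19196 genes with a mean log2 level of at least 7.5 over both arrays were compared, and a gene counted as different when its log2 level differed by at least 1, which is a 2-fold difference.

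AZA is a cytidine analogue that cells build into newly made DNA and RNA, where it traps DNA methyltransferases, so that methylation is lost as cells divide. CHQ is a hydroxyquinoline that binds the iron and the 2-oxoglutarate site of oxygenases, a class that holds the Jumonji histone demethylases as well as the prolyl hydroxylases that mark the hypoxia factor HIF for destruction. Both treatments were applied while the cells left the naive state, a step that involves new DNA methylation and histone demethylation at genes of the stem cell programme. The compounds share no scaffold and the doses were not matched, so each difference below is one between these 2 treatments as given. With 1 array per treatment there is no estimate of the spread between cultures, and no statistical test between the treatments was run.

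Between 5 and 9 genes each of EGF signalling, of the immediate-early and ERK feedback group and of sterol synthesis were higher with CHQ. None of these lists held a gene higher with AZA, while 8 regulators of naive pluripotency were higher with AZA and none with CHQ. Egfr and Tcl1, which these counts include, were markers already named for the comparison. The lists were chosen with earlier results of these data known. In all, 1984 genes (10.3% of those compared) differed by at least 2-fold, 1061 of them higher with CHQ (5.53%) and 923 higher with AZA (4.81%). Each count of a gene list below is to be read against these shares. Differences of at least 2 log2 units were found for 163 genes higher with CHQ and 157 higher with AZA, and differences of at least 3 for 30 and 16. The median over all genes compared was -0.025 log2 units (quartiles -0.30 and 0.28), and 69.8% of genes lay within 0.5 of 0. Among 432 probes spotted more than once, the CHQ minus AZA difference varied between spots with an SD of 0.093 log2 units, which covers the array surface and not the cultures. Scaled to the E1A spike-in probes, the median of all genes moved to -0.18 and the share of differing genes that were higher with CHQ went from 53.5% to 42.8%, so the balance between the directions rests on the scaling.

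**Figure D1:**
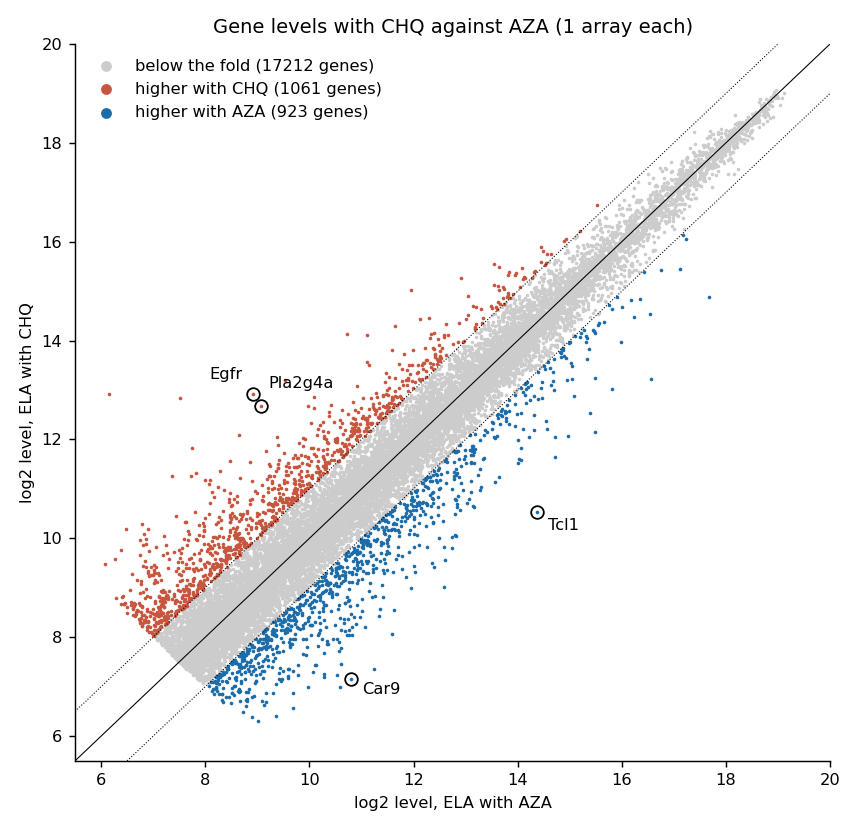
Log2 level of each of the 19196 genes with AZA (x axis) and with CHQ (y axis), 1 array each; the solid line is equality and the dotted lines a difference of 1 log2 unit. Red points are the 1061 genes higher with CHQ, blue points the 923 higher with AZA, and circles mark Egfr, Pla2g4a, Tcl1 and Car9.

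Egfr, the receptor for epidermal growth factor, had log2 levels of 10.33 in ES cells, 8.51 in untreated ELA, 8.92 with AZA and 12.93 with CHQ, a difference between the treatments of 4.01 log2 units or 16.1-fold. CHQ alone stood above all the other arrays. The probe was spotted 10 times, with an SD between spots of 0.16 on the AZA array and 0.20 on the CHQ array. Its further probes gave smaller differences in the same direction, 1.54 and 0.93. Pla2g4a, the cytosolic phospholipase A2 that frees arachidonic acid from membranes, had levels of 9.78, 9.07, 9.07 and 12.69 in the same order of arrays, 3.61 log2 units higher with CHQ. With AZA its level equalled that of untreated ELA. Of 28 genes of phospholipases A2 and eicosanoid enzymes compared, Pla2g4a among them, 4 were at least 2-fold higher with CHQ and 2 with AZA. This list was even, with 14 values on each side of 0 and a median of -0.02.

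Tcl1, a co-activator of the kinase Akt that is abundant in naive ES cells, had levels of 13.07 in ES cells, 9.40 in untreated ELA, 14.37 with AZA and 10.54 with CHQ. The AZA array was thus the highest of the 4, and CHQ minus AZA was -3.83 log2 units, a 14.2-fold difference. Car9, a membrane carbonic anhydrase and a classical target of HIF, had levels of 7.17, 6.96, 10.80 and 7.15 in that order. Only the AZA array stood apart, with CHQ minus AZA at -3.65.

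The promoters of these 4 genes are shown because they carry some of the largest contrasts of the comparison and because promoter methylation and histone marks are what the compounds are meant to act on. Each line gives the 250 bases before the RefSeq gene start (GRCm38.p6), 5′ to 3′ on the strand of the gene, for Egfr chr11:16751953-16752202 on the plus strand, Pla2g4a chr1:149961291-149961540 on the minus strand, Tcl1 chr12:105222738-105222987 on the minus strand and Car9 chr4:43506776-43507025 on the plus strand. Capitals mark matches, on either strand, to the motifs searched: the hypoxia response core ACGTG, the xenobiotic response element TTGCGTG, the AP-1 site TGACTCA, the sterol regulatory element TCACCCCAC, the E-box CACGTG (which contains the hypoxia core), the CCAAT box CCAAT, the GC box GGGCGG, the CHOP-ATF4 site TGATGCAA and the metal response core TGCACNC.
Egfr: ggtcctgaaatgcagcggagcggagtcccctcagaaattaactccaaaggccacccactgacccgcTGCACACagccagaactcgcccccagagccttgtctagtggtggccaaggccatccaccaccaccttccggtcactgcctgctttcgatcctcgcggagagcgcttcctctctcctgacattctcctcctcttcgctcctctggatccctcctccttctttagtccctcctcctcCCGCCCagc
Pla2g4a: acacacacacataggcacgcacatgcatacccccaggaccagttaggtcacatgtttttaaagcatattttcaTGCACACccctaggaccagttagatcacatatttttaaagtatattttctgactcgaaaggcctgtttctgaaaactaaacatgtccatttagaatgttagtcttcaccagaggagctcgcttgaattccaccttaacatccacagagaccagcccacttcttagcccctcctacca
Tcl1: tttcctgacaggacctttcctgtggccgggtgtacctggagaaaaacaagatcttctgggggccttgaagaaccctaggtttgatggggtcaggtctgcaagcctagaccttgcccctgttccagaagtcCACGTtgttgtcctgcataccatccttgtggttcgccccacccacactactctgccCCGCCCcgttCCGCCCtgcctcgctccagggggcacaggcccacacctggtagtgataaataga
Car9: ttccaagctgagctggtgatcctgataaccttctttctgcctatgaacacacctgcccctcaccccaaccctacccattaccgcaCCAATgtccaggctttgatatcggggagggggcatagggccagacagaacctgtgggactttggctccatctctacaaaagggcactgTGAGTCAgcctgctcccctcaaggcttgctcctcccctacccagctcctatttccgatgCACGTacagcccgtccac
The windows hold 11 CpG in Egfr, 3 in Pla2g4a, 7 in Tcl1 and 5 in Car9. Egfr holds a GC box (in 32.9% of all 27025 promoters of this length) and a metal response core (10.2%), and Pla2g4a holds only the latter. Tcl1 holds a hypoxia core (16.6%) and 2 GC boxes. Car9 holds a hypoxia core 18 bases before the gene start, an AP-1 site (4.43%) and a CCAAT box (34.5%). These are matches of letters in a window and no measure of binding or of methylation. A promoter comparison over all differing genes was void, because only 79.4% of the protein-coding genes higher with CHQ and 76.9% of those higher with AZA had a promoter sequence, under the 80% needed.

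The genes described next are among the 15 with the largest differences toward CHQ of those well above background on both arrays. Cdh2, the neural and mesodermal cadherin, had levels of 11.28 in ES cells, 12.01 in untreated ELA, 8.65 with AZA and 12.08 with CHQ, a difference of 3.43 log2 units that its second probe gave as 3.12. Here it was the AZA array that lay below the other 3. Insm1, a zinc finger factor of neuroendocrine cells, had the same shape, at 10.38, 11.52, 8.004 and 11.18. Trio, a guanine nucleotide exchange factor, was 3.40 higher with CHQ at 1 probe and 3.04 at another, while its remaining probe differed by 0.19. Itga8, an integrin subunit, had levels of 8.78, 7.19, 7.72 and 11.25, with CHQ above the other arrays. Ltf, the iron-binding protein lactotransferrin, was 3.90 log2 units higher with CHQ (7.36 with AZA and 11.25 with CHQ). The stress factor Atf3 had 8.47 with AZA and 11.57 with CHQ. Of 21 ATF4 target genes compared, Atf3 among them, 2 were at least 2-fold higher with CHQ and none with AZA. Of their values 8 lay above 0 and 13 below, with a median of -0.12. The Y-linked RNA-binding gene Rbmy had the largest difference of these 15, 4.09, with 2.25 at a second probe. A further 12 genes higher with CHQ and 4 higher with AZA were not well above background on the dimmer array, so their fold has only a lower bound. The most extreme of them was Capn13, described with its neighbours on chr17.

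The 15 toward AZA, chosen in the same way, were led by Pramel14, of the Prame family expressed in germ cells and early embryos, with levels of 8.43 in ES cells, 6.19 in untreated ELA, 11.24 with AZA and 7.36 with CHQ. CHQ minus AZA was -3.87 log2 units. Only the AZA array lay above ES cells. Fabp3, a fatty acid-binding protein of heart muscle, had levels of 15.20, 14.36, 16.57 and 13.22, a difference of -3.34 that its second probe gave as -3.50. Tnnt1, slow skeletal troponin T, differed by -3.06, the atrial myosin light chain Myl4 by -2.96 and the microfibril protein Mfap4 by -3.57. Brcc3, an X-linked deubiquitinase subunit, was bright on all arrays at 13.10, 13.59, 15.48 and 12.16, and differed by -3.32. The X-linked germ cell gene Xlr5b was not well above background in ES cells or untreated ELA and reached 11.62 with AZA and 8.55 with CHQ.

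**Figure D2:**
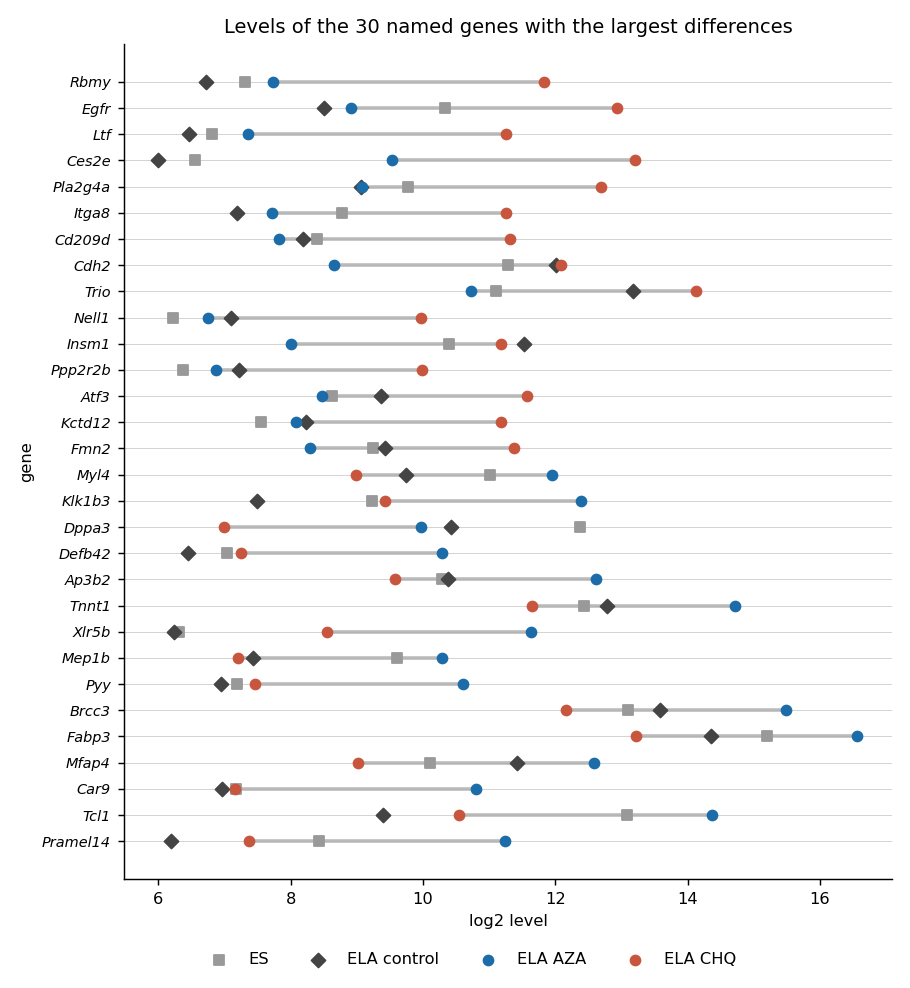
Log2 level (x axis) of the 15 named genes with the largest differences in each direction among genes well above background on both arrays (y axis), in ES cells (squares), untreated ELA (diamonds), ELA with AZA (blue) and ELA with CHQ (red), 1 array each; grey lines join the AZA and CHQ values. For Car9 the CHQ value of 7.15 lies beside ES at 7.17 while AZA is at 10.80, and for Cdh2 the CHQ value of 12.08 lies beside untreated ELA at 12.01 while AZA is at 8.65.

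Either treatment could be the one that stood away from untreated ELA. Of the 1061 genes higher with CHQ, 362 were at least 1 log2 unit above untreated ELA with CHQ and within 1 of it with AZA, 242 were at least 1 below it with AZA and within 1 of it with CHQ, and 205 were at least 1 above it with both. Both arrays were at least 1 below it for 55, the treatments lay on opposite sides for 14, and neither reached 1 for 183. Of the 923 genes higher with AZA, 369 were above untreated ELA with AZA alone, 178 below it with CHQ alone, 207 above it with both, 31 below it with both, 9 on opposite sides and 129 within 1 of it with both. Untreated ELA was hybridised on the other slide, so in these counts slide and treatment cannot be told apart, while the CHQ and AZA difference itself lies within 1 slide.

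The regulators of naive pluripotency leaned toward AZA. These factors hold ES cells in a self-renewing state and are shut off as the epiblast matures. Of 15 compared, 8 were at least 2-fold higher with AZA and none was with CHQ, with a median of -1.12 against -0.025 over all genes. Besides Tcl1, Esrrb, an orphan nuclear receptor, had levels of 14.93 in ES cells, 12.08 in untreated ELA, 15.98 with AZA and 13.97 with CHQ. Prdm14, which represses methyltransferase genes in naive cells, had 10.56, 6.68, 10.74 and 8.36. Nr0b1 had 13.13, 9.23, 13.69 and 12.57. In these 3 genes untreated ELA was lowest, AZA was highest and CHQ lay between. Dppa3, which protects maternal methylation marks, ran differently, at 12.37, 10.43, 9.97 and 6.995, so that the CHQ array was the lowest. Nanog, the homeobox factor of the naive state, differed by -2.85 at its brighter probe (15.03, 12.53, 15.39 and 12.54) and by 0.53 in the opposite direction at a dimmer one. Zfp42 (-0.68), Klf4 (-0.59) and Klf2 (-0.59) differed by less than 2-fold, and Klf5, Gbx2 and Fgf4 had values above 0. The general pluripotency factors Pou5f1 (14.05 with AZA and 13.56 with CHQ) and Sox2 (13.76 and 13.41) differed by -0.49 and -0.35. In untreated ELA they were at 14.46 and 12.77. Of 11 such factors, Lin28b (a difference of 1.598, and 0.50 at its other probe) was at least 2-fold higher with CHQ and none with AZA. Its level was 14.26 in untreated ELA, 10.84 with AZA and 12.43 with CHQ. Lin28a, at 15.78, 14.21 and 13.49, and Sall4, at 13.97, 12.81 and 12.22, were also below untreated ELA with both treatments.

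Some formative genes, which come on as cells enter the epiblast state, were higher with CHQ. Of 14 compared, 4 were at least 2-fold higher with CHQ and 1, the Wnt antagonist Sfrp2, with AZA, and the median of 0.08 turned to -0.06 with scaling to the 75th percentile and to -0.16 with scaling to the spike-ins. The 4 were Lef1, a nuclear partner of β-catenin (2.00, and 2.05 at a second probe), the POU factor Pou3f1 (1.84), Fgf5 (1.39) and Zic2 (1.12). Fgf5, the standard marker of the early epiblast, had levels of 11.61 in ES cells, 14.47 in untreated ELA, 11.94 with AZA and 13.32 with CHQ. Neither treatment reached untreated ELA, and AZA lay closer to ES cells. Otx2, another epiblast factor, had 15.27, 15.85, 16.18 and 15.54 and differed by -0.64.

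Of 10 EGF receptor and ligand genes compared, 5 were at least 2-fold higher with CHQ and none with AZA, with a median of 0.92, which was 0.32 when a gene was given as the mean of its probes. Besides Egfr they were Nrg1, the ligand of the related receptors ERBB3 and ERBB4 (9.72 in ES cells, 9.77 in untreated ELA, 8.17 with AZA and 10.84 with CHQ, a difference of 2.67), Erbb3 (1.43), the feedback inhibitor Errfi1 (1.29) and the ligand Nrg4 (1.22). The Nrg4 value comes from 1 of 3 probes, and the other 2 lay at -0.22 and -0.98. Hbegf, another ligand, was at 10.16 with AZA and 9.23 with CHQ, and Erbb2 differed by 0.25.

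Immediate-early genes and feedback genes of the ERK kinase pathway, which growth factors and stress switch on within minutes, leaned the same way. Of 22 compared, 8 were at least 2-fold higher with CHQ and none with AZA, with a median of 0.79. Among them were 5 genes of AP-1 subunits. Jun had levels of 12.31 in ES cells, 13.96 in untreated ELA, 12.91 with AZA and 15.27 with CHQ, a difference of 2.35. Fosb had 7.73, 10.18, 7.81 and 10.54, a difference of 2.73. For Jun the CHQ array was the highest, while for Fosb CHQ lay near untreated ELA and AZA near ES cells. The zinc finger factor Egr2 differed by 2.55, Fosl2 by 2.17 (0.28 at its other probe), the phosphatase Dusp1 by 1.88, Fos by 1.66, the inhibitor Spred1 by 1.48 and Fosl1 by 1.16. Egr1 differed by 0.52, and Etv4 and Etv5, which report steady FGF and ERK activity in ES cells, differed by 0.09 and 0.08.

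**Figure D3:**
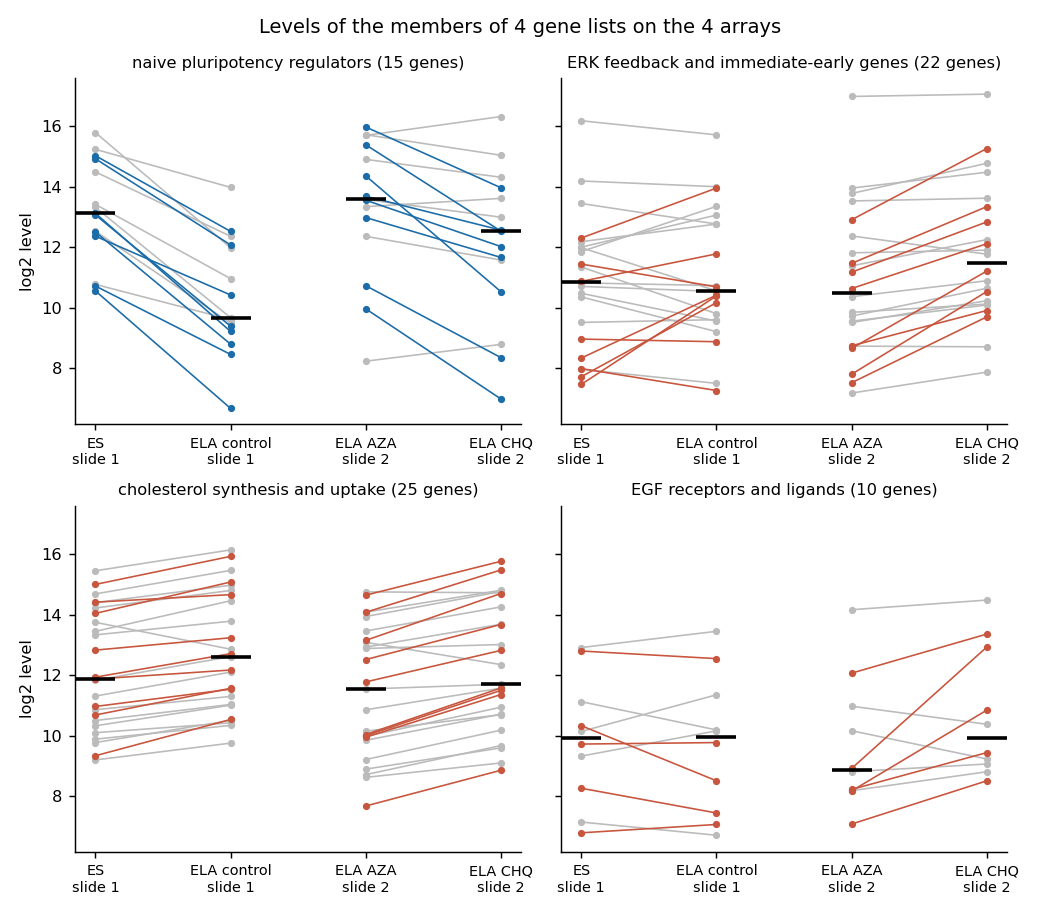
Log2 level (y axis) of each compared member of 4 gene lists on the 4 arrays (x axis, with the slide), lines joining arrays of the same slide; red members were at least 2-fold higher with CHQ, blue ones with AZA, grey ones neither, and black bars are medians of the list. In the naive list 8 of 15 members are blue and none red, and in the other 3 lists 8 of 22, 9 of 25 and 5 of 10 are red and none blue.

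Most genes of cholesterol synthesis and uptake, which the transcription factor SREBP2 controls together, had lower values with AZA than with CHQ, though fewer passed 2-fold. Of 25 compared, 9 were at least 2-fold higher with CHQ and none with AZA, 23 had a value above 0 and the median was 0.86. Idi1, an isomerase early in the pathway, had levels of 14.41 in ES cells, 14.66 in untreated ELA, 13.15 with AZA and 14.69 with CHQ, a difference of 1.55. Lss, the cyclase that makes lanosterol, had 11.93, 12.71, 10.04 and 11.57. In both of them AZA was the lowest array, and over the list the median distance from untreated ELA was -1.28 with AZA and -0.51 with CHQ. Dhcr7, Cyp51, Msmo1, Hmgcs1 and Stard4 were also among the 9, with differences from 1.04 to 1.50. The 2 values below 0 were those of the isomerase Ebp (-0.74) and of Fdps (-0.03). Of the 25 genes, 17 had a promoter sequence, and 1 of them, Hmgcs1 (15.92 in untreated ELA, 14.64 with AZA and 15.76 with CHQ), held the sterol regulatory element as spelled above, a match found in 0.466% of all promoters. It is shown for chr13:119690101-119690350 on the plus strand (GRCm38.p6, RefSeq), with the element in capitals.
Hmgcs1: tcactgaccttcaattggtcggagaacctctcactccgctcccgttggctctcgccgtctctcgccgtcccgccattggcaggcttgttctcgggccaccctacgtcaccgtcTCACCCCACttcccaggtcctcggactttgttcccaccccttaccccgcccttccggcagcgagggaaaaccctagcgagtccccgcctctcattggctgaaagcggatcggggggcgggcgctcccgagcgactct

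Further sets leaned toward AZA. Of 8 Rhox homeobox genes, an X-linked cluster of reproductive tissues, 5 were at least 2-fold higher with AZA and none with CHQ (median -1.10, and -0.67 without a minimum level). Rhox5 had levels of 15.52 in ES cells, 14.73 in untreated ELA, 16.23 with AZA and 14.47 with CHQ, whereas Rhox8 differed by 0.37. Of 8 genes of the Tcl1 family and maternal-effect group, 4 were higher with AZA and none with CHQ (median -0.87, and -0.43 without a minimum level). Tcl1 and Dppa3 among these 4 also count among the naive regulators above. The others were Padi6 (-1.08) and Khdc3, a subunit of the subcortical maternal complex, at 11.94, 7.80, 12.79 and 10.49. Of 17 interferon response genes, 6 were higher with AZA and 1 with CHQ, with a median of -0.73 that shrank to -0.17 without a minimum level. The 6 were Ifitm1, Ifitm2, Ifitm3, Oas1a, Oasl1 and the RNA sensor Ddx58, with differences from -1.50 to -1.19, and the exception was the antiviral gene Rsad2 (2.38). Ifitm3 had 14.66 in ES cells, 12.36 in untreated ELA, 14.68 with AZA and 13.19 with CHQ, so the AZA value lay beside that of ES cells. Lefty1 and Lefty2, secreted inhibitors of Nodal, and Bmp4 were also higher with AZA, by differences of -2.47, -2.89 and -2.16. Of 16 Nodal and BMP targets 4 were higher with AZA and 1, Id2, with CHQ (1.09, and 0.989 in its lowest alternative). This list as a whole was even, with 8 values on each side of 0 and a median of -0.13.

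Genes of the 2-cell embryo and of germ cells held differences as well. Of 14 2-cell stage genes, 3 (Tcstv1, Tcstv3 and Usp17la) were at least 2-fold higher with CHQ and none with AZA, with a median of 0.28. Usp17la was at -0.28 at its other probe, and Tcstv1 (1.05) was at 0.95 with spike-in scaling. Zscan4f, a marker of the 2-cell-like state, had levels of 10.30 in ES cells, 6.17 in untreated ELA, 14.34 with AZA and 14.20 with CHQ. Both treated arrays stood above the others by a similar amount, and members of this family share sequence that a probe may not tell apart. Of 25 germline and meiosis genes, 4 were higher with AZA and 2 with CHQ. Dazl, an RNA-binding protein of germ cells, had 7.75, 7.40, 10.53 and 9.30, and Ddx4, a germ cell helicase, had 11.40, 10.52, 9.32 and 11.01, the other way.

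The genes of the histone demethylases and DNA methyltransferases, which the compounds are meant to inhibit, did not differ by 2-fold between the treatments. Of 23 entries for histone lysine demethylases compared, in which Mina and Riox2 are names of 1 gene, none differed by 2-fold in either direction and the median was 0.21. The largest values were 0.78 for Phf8, whose 3 further probes lay between -0.23 and 0.08, and 0.61 for Kdm3a (14.46 with AZA and 15.07 with CHQ), itself a HIF target. Kdm1a, which works through a flavin and not through 2-oxoglutarate, differed by -0.24. Dnmt1, the maintenance methyltransferase, had levels of 11.86 in ES cells, 11.93 in untreated ELA, 11.82 with AZA and 11.81 with CHQ. The de novo enzymes Dnmt3a and Dnmt3b differed by -0.20 and 0.66, and their partner Dnmt3l by -0.94, which passed the fold with spike-in scaling (-1.18) and with scaling to the 75th percentile. Of 24 other oxygenases that use 2-oxoglutarate, 1 was higher with CHQ, the RNA demethylase Fto (9.03 with AZA and 10.34 with CHQ), and none with AZA. Of 18 genes of DNA methylation, 2 differed, a share near the 10.3% of all genes: the methyl-CpG reader Mbd2 was higher with CHQ (1.12, and 0.987 with spike-in scaling) and Zfp57, which guards imprints, with AZA (-1.65).

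Of 26 HIF target genes compared, 3 differed by 2-fold, a share near the 10.3% of all genes. Toward CHQ these were the peptide hormone gene Adm (1.28) and Ndrg1 (1.05, and 0.72 in its lowest alternative), and toward AZA it was Car9. Adm had levels of 7.89 in ES cells, 8.08 in untreated ELA, 10.81 with AZA and 12.09 with CHQ. Vegfa, the vascular growth factor, had 8.53, 9.40, 12.27 and 11.76. Both treated arrays were above both others for these genes, and the median distance of the list from untreated ELA was 1.25 with AZA and 1.34 with CHQ. For Car9 only the AZA array was. Targets of p53 likewise lay above untreated ELA with both, by medians of 1.09 and 1.82, and 4 of 24 (Plk3, Perp, Fas and Tap1) were higher with CHQ and none with AZA, with a median of 0.44 that was 0.21 with spike-in scaling. Cdkn1a, the p53-induced inhibitor of the cell cycle, had 11.42 in untreated ELA, 13.24 with AZA and 12.92 with CHQ. The slide is shared by both treated arrays, and its part in their distance from untreated ELA cannot be told apart from that of treatment.

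Nucleoside handling, through which cells take up and activate AZA, held 1 gene of 14 higher with CHQ and 2 higher with AZA. Over all genes the shares were 5.53% and 4.81%, and the median of this list was -0.30. The concentrative transporter Slc28a2 was not well above background in ES cells or untreated ELA and had log2 levels of 6.86 with AZA and 9.88 with CHQ, a difference of 3.02. Slc28a1 and the equilibrative transporter Slc29a1 differed by -1.51 and -1.44. In Slc29a1 the levels were 13.33 in ES cells, 11.05 in untreated ELA, 14.24 with AZA and 12.80 with CHQ. Zinc handling (21 genes), DNA replication and the cell cycle (30), cytosolic ribosomal proteins (32) and reference transcripts (10) held no gene that differed by 2-fold, and their medians lay between -0.13 and 0.08. With spike-in scaling, which lowers the median of all genes, the medians were -0.38 for replication and the cell cycle and -0.32 for ribosomal proteins, and the zinc transporter gene Slc39a11 (0.998) and the polymerase gene Pola1 (0.96) passed the fold under some alternative (1.008 and 1.03).

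Markers of other cell types were read on the same arrays. Of 18 early neural genes, 17 were well above background on each array, and among 13 compared, 4 were higher with CHQ, such as Map2 (2.57) and Ncam1 (2.34, and 0.14 at its other probe), and 3 with AZA, such as Hes5 (-1.36). The levels of that list were also summed on the linear scale, where the brightest genes weigh most. The log2 of this sum was 15.63 in ES cells, 16.32 in untreated ELA, 14.17 with AZA and 14.36 with CHQ. Of 18 primitive endoderm genes, 17 with AZA and 16 with CHQ were above background against 12 in ES cells and 11 in untreated ELA, while over all gene spots the shares were 69.1%, 69.2%, 60.6% and 55.1% in that order. Among 13 compared, 4 were higher with CHQ, Gata6 (1.83), Sox17 (1.75), Afp (1.68) and Col4a2 (1.23), and 2 with AZA, Hnf4a (-1.71) and Amn (-1.35). Gata6, Sox17, Afp and Hnf4a were not well above background in ES cells or untreated ELA. Of 10 trophoblast and keratin genes compared, Tfap2c was higher with CHQ (1.33) and Esx1 with AZA (-1.15), and of 6 genes of the primitive streak and mesendoderm, Wnt3 was higher with CHQ (2.20). Of 10 fibroblast markers, 5 with AZA and 6 with CHQ were above background, and 1 of 3 compared, Thy1, was higher with AZA. In pooled RNA, fewer cells of a type and less RNA per cell cannot be told apart, and the part of such cells in the differences above was not tested.

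**Figure D4:**
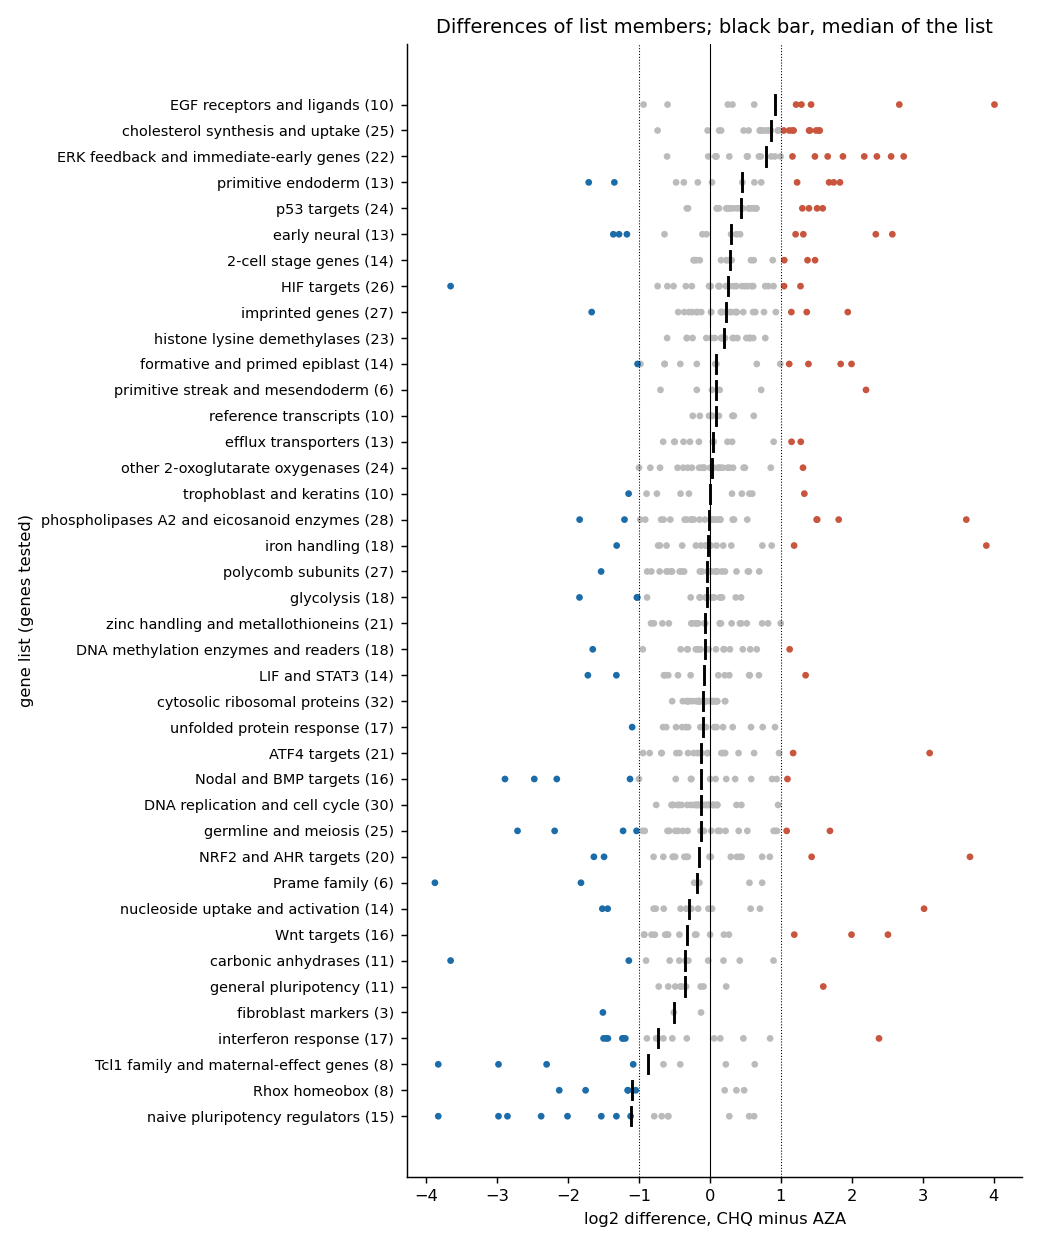
Log2 difference, CHQ minus AZA (x axis), of each compared member of 40 gene lists (y axis, number of genes compared in brackets), ordered by the median of the list (black bars); dotted lines mark 1 log2 unit, red points are genes higher with CHQ and blue points genes higher with AZA. The naive list has a median of -1.12 and the EGF list one of 0.92, but the order of the lists at both ends depends on the processing, with EGF at 0.32 by the mean over probes and Rhox at -1.22 against -1.12 for the naive list by the 75th percentile.

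In 7 places on the genome at least 4 neighbouring entries of the array, counted as gene or transcript names, differed in the same direction. On chr17 (mm9, chr17:73655808-74181428) Capn13, Galnt14 and Ehd3, with an unnamed probe, were higher with CHQ. Capn13, a calpain protease, was not well above background on the other 3 arrays and had a log2 level of 12.92 with CHQ, at least 90.9-fold higher than with AZA. It has 1 probe. On chr7 (mm9, chr7:4456172-4491429) the muscle troponin genes Tnnt1 and Tnni3 with Dnaaf3 and Syt5 were higher with AZA, with CHQ minus AZA from -3.06 to -1.32, and 2 of the 5 probes there lie side by side at Tnnt1. On chr8 Cmip, Plcg2 and Sdr42e1, with 2 entries for overlapping intergenic transcripts, were higher with CHQ, from 1.01 to 1.32, and on chr5 Fosl2 and Plb1 lay beside Babam2, which the array lists under 2 names, so this run holds 3 genes. With spike-in scaling the chr17 run and the chr8 run at Cmip fell under 4 entries, with Ehd3 at 0.97, Cmip at 0.84 and Plcg2 at 0.71, and Galnt14 was at -0.08 at its other probe. The other runs lay at gene families, whose probes may cross-react. Higher with AZA were 5 kallikreins (Klk1b3, Klk1b4, Klk1b5, Klk1b22 and Klk1b24) and 4 entries at Phf11. Among these 4, the probe of D14Ertd668e lies beside that of Phf11d, so the 2 may be names of 1 gene. Higher with CHQ were the carboxylesterases Ces2b, Ces2c and Ces2e, with an unnamed probe. Ces2e had log2 levels of 9.54 with AZA and 13.20 with CHQ, and 0.79 between them at a dim second probe.

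Further probes of the same gene were compared, since the arrays have no replicate. Of the 1984 differing genes, 620 had a further measured probe, and in 547 of these (88.2%) every further probe had the same sign. Of 908 further probes, 90.0% had the same sign and 39.6% were themselves past the 2-fold limit, against 2.34% of 9007 further probes of genes that had not differed. Probes of a gene share the RNA, so this covers the probes and not the cultures.

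**Figure D5:**
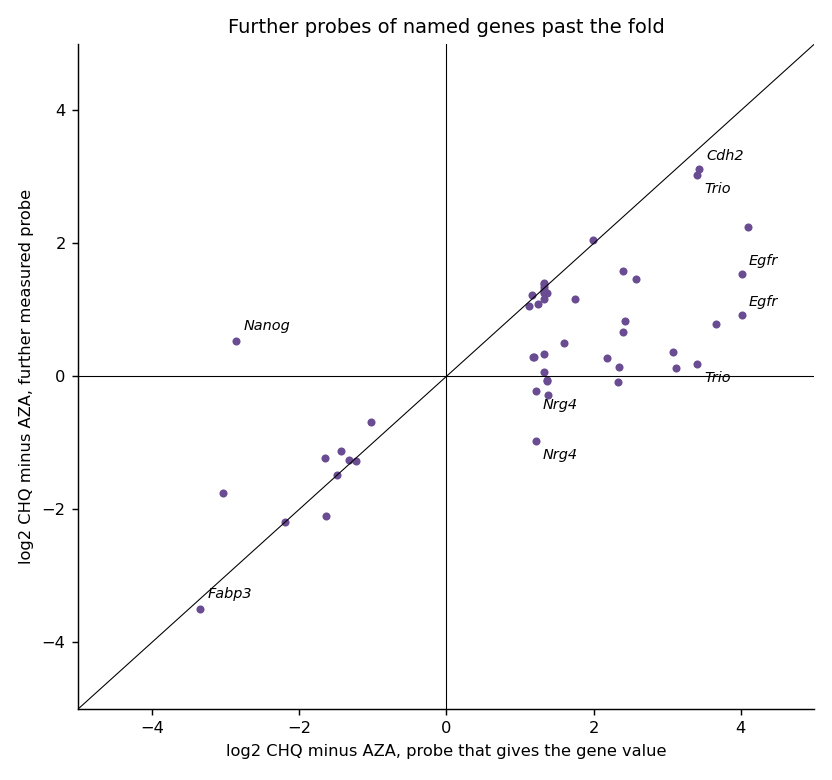
Log2 difference, CHQ minus AZA, of the probe that gives the gene value (x axis) and of each further measured probe of the same gene (y axis), for 50 further probes of 36 named genes past 2-fold; the diagonal is equality. Of the 50 probes, 43 have the same sign and 28 are past 2-fold with it, while Nanog lies at -2.85 and 0.53; for the 15 genes with the largest differences in each direction the shared sign was a condition of their choice.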

How the data were processed

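Cy3-labelled RNA was hybridised to Agilent 60-mer arrays. The authors deposited scanner files, which hold spot intensity from Feature Extraction (10.7.3.1 per the file headers, 9.1 in the submitters' processing notes), and a table of log2 values made by them with limma (background correction, then quantiles). Mean and background intensity were normexp-corrected (offset 50) and quantile-normalised over the 4 arrays (limma 3.58.1, R 4.3.3). Outlier-flagged spots were left out (559 probes lost), spots of a probe were averaged, and a gene was given by its brightest probe. Of 55681 probes, 47.7% were renamed through RefSeq accessions. Background medians were 13 and 14 for CHQ and AZA, and 59 and 77 on the other slide, and no spot was saturated. Probe positions are mm9, as in the files.

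Limits on level and fold were taken from the methods of the study (its p-value limit needs replicates); the number of arrays limits the precision. For a gene not well above background on 1 array, the fold is a bound against the lowest signal well above background. Named are the 15 largest differences in each direction among ordinary symbols well above background on both arrays, with the same sign at every measured probe, up to 5 per gene list (2 for a list without any past the fold), the target enzymes and genes in runs of at least 4 neighbours; the other genes were chosen after their values were seen. Members and lists were chosen with earlier results of these data known. The steps that make the calls were tried on simulated data, which covers the computation and not the cultures. A knockdown array was not analysed here, and values of some list members are not reported here. Alternatives were the 75th percentile of the processed signal, the deposited log2 values, the pair alone, spike-in scaling, no background correction, no offset, the mean over probes, both arrays above background and no level minimum.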

Additional observations from a re-analysis of the deposited data

Results flagged for a closer look

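For 8 of the named genes the treated arrays lay at least 1 log2 unit from untreated ELA in opposite directions, which singled them out; each group is 1 array, untreated ELA was on the other slide, and the difference was not tested. Higher with CHQ and below untreated ELA with AZA were Fmn2, an actin nucleator (CHQ minus AZA 3.08, but 0.37 at its other probe), Jun (2.35) and Nrg1 (2.67). Higher with AZA and below untreated ELA with CHQ were Mfap4 (-3.57), Fabp3 (-3.34), Brcc3 (-3.32), Tnnt1 (-3.06) and a transcript probe beside that of Tnnt1 (-2.61).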

How the results depend on the processing

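Over 9 alternatives the number of genes that differed by 2-fold ranged from 1723 (mean over the probes of a gene) to 2545 (75th percentile of the processed signal), against 1984. The deposited log2 values gave 1957, of which 1646 were among the 1984. Of the 159 named genes past 2-fold, 17 were under 2-fold in some alternative, such as Nrg4 (lowest 0.01) and Usp17la (0.55). Without a minimum level, 5 lists had a median of at least 0.5 in size, against 8, because dim genes enter the lists. No paired analysis was possible because each group has 1 array. Pooling of RNA, 1 array per treatment and unmatched doses limit the comparison: the spread between cultures is unknown, and low signals are read against a background that differs between slides and little within the pair.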
